A study of Homo sapiens with 8 samples.

Results

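Of the 17010 genes in the deposited table, 83 had the biotype rRNA, snRNA or tRNA, and every one of them was kept. They were 29 nuclear rRNA genes, 2 mitochondrial rRNA genes, 14 snRNA genes, 18 nuclear tRNA genes and 20 mitochondrial tRNA genes. The cells were PC3, a human prostate cancer line, kept in 3D culture in non-binding plates. The 4 groups of 2 libraries each were PlaB (pladienolide B at 0.5 µM, given for 24 h), DMSO (its solvent control, with no separate time on its labels), siSF3B2 (siRNA against SF3B2, reverse transfected, 72 h) and sictrl (control siRNA, 72 h). The labels do not state that replicates were separate cultures. The p-values set the difference between groups against the spread between libraries, estimated over all 4 groups, and that spread may therefore be technical.

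Pladienolide B binds the SF3B complex of the U2 snRNP and blocks pre-mRNA splicing, and SF3B2 is a subunit of that complex. The 18S, 5.8S and 28S rRNAs are cut from a 45S precursor that RNA polymerase I makes in the nucleolus, while RNA polymerase III makes 5S rRNA, tRNAs, U6, U6atac and 7SK RNA. U1 and U7 snRNAs are made by RNA polymerase II and their 3′ ends are formed by Integrator. The mitochondrial rRNAs, tRNAs and mRNAs are cut from long transcripts of both strands of the mitochondrial genome. The rRNAs, snRNAs and tRNAs mostly carry no long poly(A) tail, apart from short tails on mitochondrial rRNAs. The libraries were made with a stranded mRNA kit that selects poly(A), so the reads are those that remained after that selection. How much of each class was carried over was not measured.

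The copies of these genes share sequence to an extent that decides what a value per gene can mean. Of the 17 listed 5S genes, 16 were identical over 121 bases. RNA5S6 had 5 to 28 counts per library although its sequence is that of RNA5S1, which had 1 or 2. The sequences shown for other genes are those of the GRCh38 genome at the RefSeq positions, written 5′ to 3′ as DNA.

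RNU1-1, RNU1-2, RNU1-3, RNU1-4 and RNVU1-18 encode the same U1 sequence of 164 bases, which occurs 9 times in the genome, and RNVU1-7 differs from it by T150C (position from 1 at the RNA's 5′ end, the base of RNU1-1 first). U1 pairs with the 5′ splice site through the bases in capitals. RNU6-1, RNU6-2 and RNU6-9 are identical over 107 bases, with 7 copies in the genome, and RNU6-8 and RNU6-7 are identical to each other. RNU6ATAC, the U6 counterpart of the minor spliceosome, occurs once in the genome, with its AAGGAGA box in capitals. RN7SK also occurs once; the first part of its 332 bases is given, with the GATC repeats of the 5′ hairpin, which HEXIM1 binds, in capitals.
RNU1-1: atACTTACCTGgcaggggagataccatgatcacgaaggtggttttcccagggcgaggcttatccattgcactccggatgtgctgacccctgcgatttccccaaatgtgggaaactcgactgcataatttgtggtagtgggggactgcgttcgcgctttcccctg
RNVU1-7: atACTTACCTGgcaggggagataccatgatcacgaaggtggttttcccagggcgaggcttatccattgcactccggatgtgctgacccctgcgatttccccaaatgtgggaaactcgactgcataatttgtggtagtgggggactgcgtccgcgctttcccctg
RNU6ATAC: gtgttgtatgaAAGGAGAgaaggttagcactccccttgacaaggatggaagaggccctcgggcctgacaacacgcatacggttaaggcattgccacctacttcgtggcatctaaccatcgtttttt
RN7SK: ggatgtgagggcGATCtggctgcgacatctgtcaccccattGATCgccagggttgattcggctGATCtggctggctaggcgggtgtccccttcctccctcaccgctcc

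Among nuclear tRNA genes, TRK-CTT3-1 (chr16:3157405-3157477, minus strand) and TRI-TAT2-2 (chr6:27020346-27020439, plus strand, with an intron) are shown because they were the ones with enough counts to test, and each occurs once in the genome. The TRD-GTC2 sequence, here from TRD-GTC2-1 (chr1:161440825-161440896, minus strand), is shared by 6 listed genes and has 11 copies in the genome. The mitochondrial tRNAs shown are those whose values are described in most detail. The capitals mark the anticodon.
TRK-CTT3-1: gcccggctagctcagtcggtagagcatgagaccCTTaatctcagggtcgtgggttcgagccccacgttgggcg
TRI-TAT2-2: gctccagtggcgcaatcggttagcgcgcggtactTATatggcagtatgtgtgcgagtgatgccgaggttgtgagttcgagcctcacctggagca
TRD-GTC2-1: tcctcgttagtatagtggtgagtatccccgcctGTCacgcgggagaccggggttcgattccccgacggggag
TRNF: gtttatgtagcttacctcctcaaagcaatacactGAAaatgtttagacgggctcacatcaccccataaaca
TRNV: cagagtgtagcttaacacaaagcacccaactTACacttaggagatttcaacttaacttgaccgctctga
TRNL1: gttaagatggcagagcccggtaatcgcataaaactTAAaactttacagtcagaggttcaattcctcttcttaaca
TRNC: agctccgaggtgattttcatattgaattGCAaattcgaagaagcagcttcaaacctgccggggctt
TRNY: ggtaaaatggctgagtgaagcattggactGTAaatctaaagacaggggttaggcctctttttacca
TRNS1: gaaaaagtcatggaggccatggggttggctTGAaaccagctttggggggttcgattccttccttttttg
TRNR: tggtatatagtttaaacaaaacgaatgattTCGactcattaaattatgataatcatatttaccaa

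The libraries held between 35461248 and 72983584 counts. The 83 genes took 7.01% and 7.31% of the counts in PlaB, 3.17% and 3.05% in DMSO, 4.31% and 2.39% in siSF3B2 and 3.49% and 3.63% in sictrl. The 95% Wilson intervals of these shares were at most 0.0086 percentage points to either side and cover counting error only. SF3B2, the targeted gene, had 36.4 and 30.1 CPM in siSF3B2 against 228 and 228 CPM in sictrl (log2 fold change -2.78 ± 0.24 SE, edgeR adjusted p = 0.0513). The epithelial keratins KRT8 and KRT18 were at 102 to 710 and 199 to 899 TPM, and KLK3, PTPRC, CD3E and PDGFRB were not listed, while the stromal COL3A1 was at 0.336 to 3.81 TPM and the endothelial PECAM1 at 0.356 to 21.8 TPM; their part in the results was not tested. Of 16488 genes tested with edgeR, 68% were called at an adjusted p under 0.05 in PlaB against DMSO, 32.5% higher and 35.5% lower. No gene was called in siSF3B2 against sictrl, where 638 genes (3.87%) had an unadjusted p under 0.05 and DESeq2 called 29.

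CPM here are counts scaled to a common library size with TMM, whose factors were 0.632 and 0.663 in PlaB and 1.13 to 1.21 in the other libraries. All values are shares of the listed RNA, so more of a class and less of the other RNA cannot be told apart. The median of all tested genes was -0.11 on the log2 scale in PlaB against DMSO, and it moved to -0.97 when libraries were scaled by their totals alone. The log2 values of the single genes moved down with it. Where that changed a call of an rRNA, snRNA or tRNA gene in PlaB against DMSO, the gene is named. For the difference between the PlaB and siSF3B2 effects, only the number of calls with that scaling is given, in the last section. For the genes that make and process these RNAs, calls with that scaling are not given.

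After a filter on low counts, 45 of the 83 were tested and 38 were not. The tested ones were 10 nuclear rRNA, 2 mitochondrial rRNA, 12 snRNA, 2 nuclear tRNA and 19 mitochondrial tRNA genes. TRNG, TRI-TAT2-2, RNU6ATAC, RNVU1-18, RNVU1-7 and RNU1-2 passed only through the PlaB libraries. These 6 could enter the test only by being high in PlaB, so the counts over tested genes are descriptions and not evidence of a direction for the 83. In PlaB against DMSO, 30 of the 45 were called higher and 0 lower by edgeR, beside 32.5% of all tested genes called higher; DESeq2 called 29. At an unadjusted p under 0.05 the count was also 30, beside 71.1% of all tested genes. Their median log2 change was 1.89, and 35 of 45 had both PlaB libraries above both DMSO libraries, beside 38.6% of all tested genes.

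**Figure D1:**
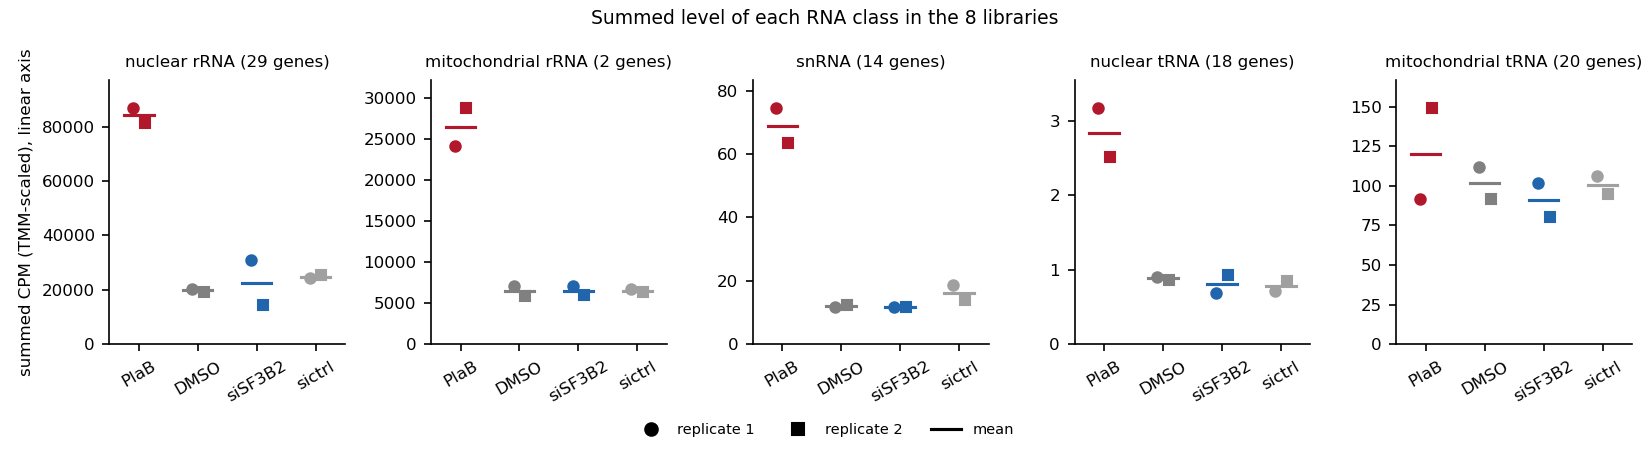
Summed CPM of each class in each library (linear axes from 0; points are libraries, lines are means of 2). PlaB libraries lie above all others for nuclear rRNA, mitochondrial rRNA, snRNA and nuclear tRNA, while for mitochondrial tRNA replicate 2 of PlaB (149 CPM) lies above the others and replicate 1 (91.5 CPM) lies among them.

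Nuclear rRNA took most of these counts, and its sum was higher in PlaB than in DMSO. The 29 genes summed to 86751 and 81465 CPM in PlaB against 20251 and 19280 CPM in DMSO, a log2 ratio of means of 2.09. As a share of raw library counts the ratio was 1.22. All 10 tested nuclear rRNA genes were called higher, beside 32.5% of all tested genes. Their log2 changes lay between 1.99 and 3.16 (median 2.62). They include the 45S genes and the 18S and 28S genes inside them on the same strand, so the 10 are not 10 separate measurements.

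The 28S rRNA is the RNA of the large ribosomal subunit that holds the peptidyl transferase centre, and its genes had the highest counts of the set. RNA28SN1 (chr21:8441146-8446211) had 28327 and 29444 CPM in PlaB against 7354 and 7091 CPM in DMSO. Both PlaB libraries were far above both DMSO libraries, and the log2 change was 2.0 ± 0.40 (SE, adjusted p = 0.00273). RNA28SN2 and RNA28SN3, the 28S genes of other repeats on the same chromosome, changed by 1.99 ± 0.38 and 2.0 ± 0.43.

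The 45S genes RNA45SN1, RNA45SN2 and RNA45SN3 span the whole precursor, including the spacers that are removed on maturation, and the 18S, 5.8S and 28S genes of the same repeat lie inside them on the same strand. RNA45SN1 had 5573 and 2301 CPM in PlaB against 656 and 485 CPM in DMSO. Its log2 change was 2.79 ± 0.58 (SE, adjusted p = 0.00316). Replicate 2 stood at 0.413 times replicate 1 in PlaB and at 0.404 times in siSF3B2. The 3 genes together had 16056 and 6532 CPM in PlaB against 1953 and 1467 CPM in DMSO. Counts of the 45S genes were 23.4% and 9.05% of those of the 28S genes in PlaB, 10.9% and 8.42% in DMSO, 11.4% and 14.5% in siSF3B2, and 20.9% and 8.38% in sictrl. The shares in PlaB overlapped those in DMSO, in siSF3B2 and in sictrl. The sources used here do not say how reads were divided between these overlapping genes.

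The 18S rRNA is the RNA of the small ribosomal subunit. RNA18SN1 had 523 and 797 CPM in PlaB against 110 and 118 CPM in DMSO (log2 change 2.53 ± 0.47 SE, adjusted p = 0.00187). RNA18SN2 and RNA18SN3 changed by 2.65 ± 0.45 and 2.71 ± 0.71. The call of RNA18SN3 rests on both DMSO libraries, since its adjusted p rose to as much as 0.0535 when either was left out. Per length, 28S genes stood far above 18S genes in every library. The ratio of their summed TPM was 12.8 and 9.75 in PlaB, 17.8 and 16.6 in DMSO, 12.3 and 16.3 in siSF3B2, and 34.5 and 21.8 in sictrl, although both mature RNAs come from the same precursor.

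5S rRNA, which sits in the central protuberance of the large subunit, was near the detection limit. RNA5S6 had 28 and 17 counts in PlaB against 5 and 10 counts in DMSO, or 1.07 and 0.723 CPM against 0.0812 and 0.113 CPM. The log2 change was 3.16 ± 0.46 (SE, adjusted p = 0.000508). The 17 copies of 5S summed to 2.98 and 1.79 CPM in PlaB against 0.341 and 0.397 CPM in DMSO. Outside RNA5S6 no 5S gene had more than 5 counts in a library, and RNA5S9 had 1 in every library. The 5.8S genes had 1 to 7 counts each and were not tested.

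**Figure D2:**
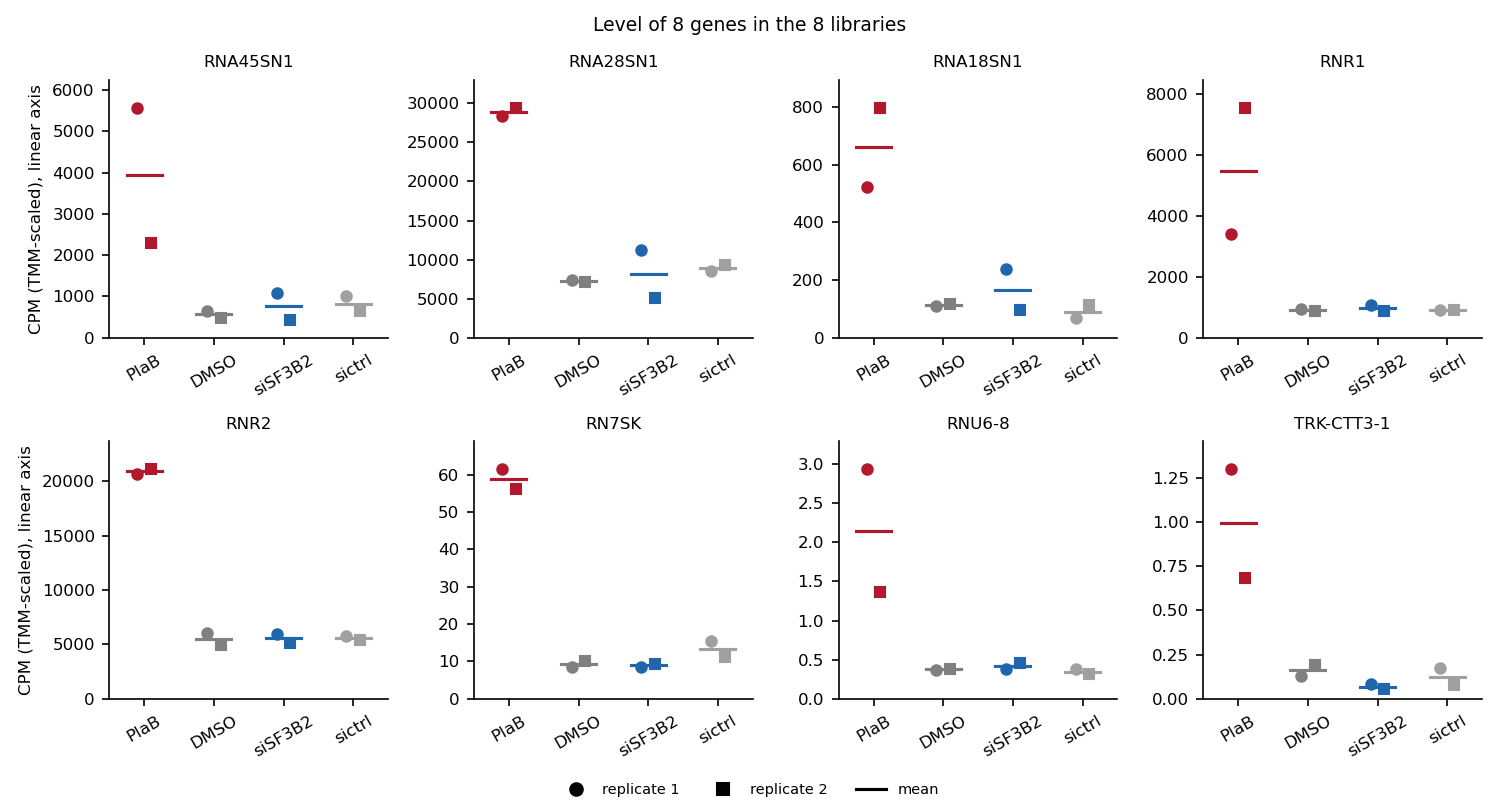
CPM of 8 genes in each library (linear axes from 0; points are libraries, lines are means of 2). In every panel both PlaB libraries lie above both DMSO libraries, and the PlaB libraries lie apart for RNA45SN1 (5573 and 2301 CPM) and RNR1 (3412 and 7544 CPM).

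The mitochondrial rRNAs were both called higher in PlaB. RNR2 (mitochondrial genome, bases 1671 to 3229), the 16S rRNA of the large mitochondrial subunit, had 20696 and 21146 CPM in PlaB against 6092 and 4965 CPM in DMSO. Its log2 change was 1.92 ± 0.28 (SE, adjusted p = 0.000478). RNR1 (bases 648 to 1601), the 12S rRNA of the small subunit, had 3412 and 7544 CPM in PlaB against 948 and 872 CPM in DMSO, a log2 change of 2.59 ± 0.39 (adjusted p = 0.000598). Both PlaB libraries were above both DMSO libraries for each gene, and RNR1 differed 2.21-fold between the PlaB libraries while RNR2 differed 1.02-fold. RNR1 counts were 16.5% and 35.7% of RNR2 counts in PlaB, against 15.6% and 17.6% in DMSO, and 15.8% to 17.9% in the siRNA libraries, so replicate 2 of PlaB stood apart from the other 7. The 13 mitochondrial mRNAs, cut from the same transcripts, had a median log2 change of 0.87. Of these mRNAs 7 were called higher and 0 lower, beside 32.5% and 35.5% of all tested genes. The number called was 0 without replicate 2 of DMSO, 2 without replicate 2 of PlaB, 3 without replicate 1 of siSF3B2 or replicate 2 of sictrl, 4 without replicate 1 of sictrl, and 2 with the contrast's libraries alone. RLE scaling, a replicate block, a filter of at least 1 CPM in 2 libraries and DESeq2 each gave 10 called higher. The 13 mRNAs summed to 26816 and 35305 CPM in PlaB against 22072 and 15232 CPM in DMSO. When libraries were scaled by their totals alone, their median was 0.00 and none was called, while the median of the 2 rRNAs was 1.39 and both were still called.

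Of the 14 listed snRNA genes, 12 were tested and 11 were called higher in PlaB, beside 32.5% of all tested genes. The median log2 change of the 12 was 2.1. The 14 genes summed to 74.4 and 63.5 CPM in PlaB against 11.9 and 12.5 CPM in DMSO, and RN7SK made up most of that sum. RN7SK (chr6:52995620-52995951), the scaffold that holds the elongation factor P-TEFb inactive together with HEXIM1, LARP7 and MEPCE, had 61.6 and 56.1 CPM in PlaB against 8.58 and 10.1 CPM in DMSO. It had the smallest adjusted p of the 45 tested genes (5.23e-05), with a log2 change of 2.66 ± 0.24 (SE). The groups were far apart in both libraries, and the call held in all 18 alternatives. HEXIM1, the P-TEFb inhibitor of that complex, changed by 3.67 ± 0.22 (adjusted p = 1.78e-05) and MEPCE, the 7SK capping enzyme, by 1.24 ± 0.24 (adjusted p = 0.00209). LARP7, which binds the 3′ end of 7SK, had a log2 value of -0.26 ± 0.22 (adjusted p = 0.322).

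The U1 genes had low counts, and RNU1-2, RNVU1-18 and RNVU1-7 passed the filter only through PlaB, so their changes are descriptions. RNU1-1 and RNU1-3 had the same counts in every library, 19 and 12 in PlaB against 10 and 11 in DMSO, that is 0.725 and 0.511 CPM against 0.162 and 0.125 CPM. Their log2 change was 2.11 ± 0.44 (SE, adjusted p = 0.00327). RNU1-2, RNU1-4, RNVU1-18 and RNVU1-7 changed by 1.89 to 2.29. For RNVU1-7 the raw counts overlapped, at 12 and 7 in PlaB against 7 and 8 in DMSO, while its CPM did not, at 0.458 and 0.298 in PlaB against 0.114 and 0.0907 in DMSO. RNVU1-7 lost the call without replicate 1 of PlaB, RNVU1-7 and RNVU1-18 lost it without replicate 2 of DMSO, and both lost it when libraries were scaled by their totals alone. RNU1-2 and RNU1-4 lie inside CROCC on its strand, and CROCC itself had a log2 value of -0.81 ± 0.55 (adjusted p = 0.223). Since 5 of the 6 sequences are identical, the 6 genes are not 6 measurements.

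U6, the catalytic snRNA of the spliceosome, gave uneven values among its copies. RNU6-8 (chr14:32203163-32203269, minus strand) had 77 and 32 counts in PlaB against 23 and 34 counts in DMSO, or 2.94 and 1.36 CPM against 0.374 and 0.385 CPM. Its log2 change was 2.50 ± 0.45 (SE, adjusted p = 0.00152), although the raw counts overlapped. RNU6-7, with the same sequence, had 6 and 1 counts in PlaB against 2 and 1 in DMSO and was not tested. RNU6-1 and RNU6-2 were called at 1.43 ± 0.41 (adjusted p = 0.0136) and 1.48 ± 0.54 (adjusted p = 0.0376), and RNU6-9 at 1.14 ± 0.53 was not (adjusted p = 0.0909). RNU6-1 and RNU6-2 lost their calls without replicate 1 of PlaB, without replicate 2 of DMSO and when libraries were scaled by their totals alone, and RNU6-1 also without replicate 1 of DMSO. RNU6-2 further lost it with any of the 4 siRNA libraries left out and when the 4 libraries of the contrast were fitted alone. RNU6-9 was called without replicate 2 of PlaB (adjusted p = 0.0316). RNU6-8 was called in the 17 alternatives that tested it, which leaves out the filter of at least 1 CPM in 2 libraries. The 5 listed U6 genes summed to 8.51 and 4.17 CPM in PlaB against 2.36 and 1.58 CPM in DMSO.

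RNU6ATAC (chr9:134164439-134164564, minus strand) had 14 and 15 counts in PlaB against 10 and 15 in DMSO. In CPM these were 0.534 and 0.638 against 0.162 and 0.170, and the log2 value, which the filter through PlaB makes a description, was 1.80 ± 0.43 (SE, adjusted p = 0.00649), with the adjusted p at 0.0825 when libraries were scaled by their totals alone. RNU7-1, the guide of histone mRNA 3′-end cleavage, had 1 count in every library and lies in an exon of C12orf57. The U2, U4, U5, U11, U12 and U4atac genes looked up by symbol were not among the genes listed in the table.

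**Figure D3:**
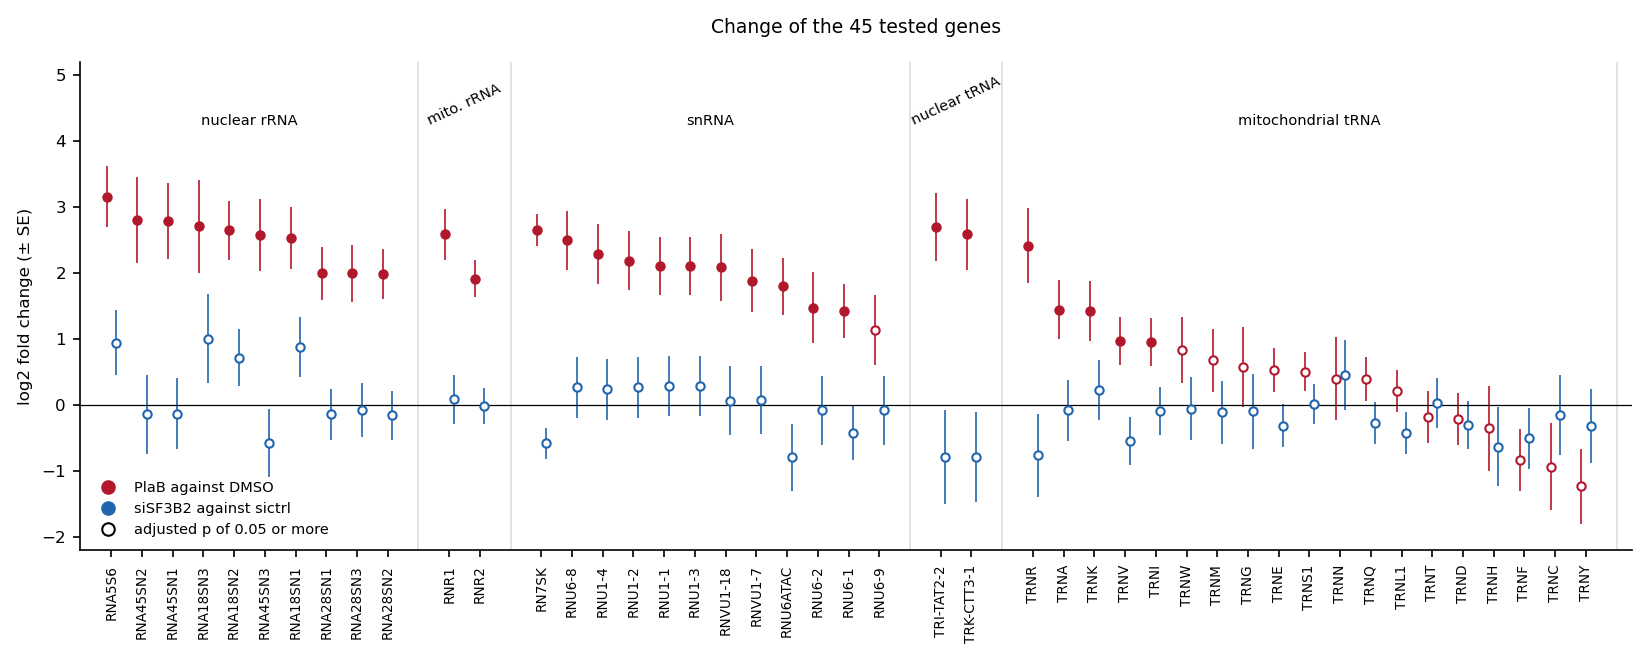
Log2 fold change with its SE for the 45 tested genes, PlaB against DMSO in red and siSF3B2 against sictrl in blue; filled points have an adjusted p under 0.05. All rRNA and nuclear tRNA points and 11 of 12 snRNA points for PlaB are filled, 5 of 19 mitochondrial tRNA points are, and no siSF3B2 point is. Of all tested genes, 32.5% were called higher and 35.5% lower in PlaB against DMSO.

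Nuclear tRNA genes had few counts. The 18 genes summed to 83 and 59 counts in PlaB against 56 and 76 counts in DMSO, that is 3.17 and 2.51 CPM against 0.910 and 0.861 CPM. TRK-CTT3-1, a lysine tRNA gene, had 34 and 16 counts in PlaB against 8 and 17 in DMSO, or 1.30 and 0.681 CPM against 0.130 and 0.193 CPM. Its log2 change was 2.59 ± 0.54 (SE, adjusted p = 0.00339). TRI-TAT2-2, an isoleucine tRNA gene, had 18 and 9 counts in PlaB against 6 and 6 in DMSO, and changed by 2.70 ± 0.51 (adjusted p = 0.00185). TRK-CTT3-1 was called in the 17 alternatives that tested it. TRI-TAT2-2 reached the count needed for testing in the PlaB libraries and in no other, so its change is a description and its p-value is no support for a direction.

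Both lie in exons of longer noncoding genes on the same strand. TRI-TAT2-2 lies in LINC00240, which changed by 2.69 ± 0.50 (adjusted p = 0.00184), and TRK-CTT3-1 lies in an unnamed lncRNA gene. The part of host transcripts in the tRNA counts was not tested. The other 16 nuclear tRNA genes were not tested. Of these, the aspartate genes TRD-GTC2 summed to 0.496 and 0.468 CPM in PlaB against 0.341 and 0.306 CPM in DMSO, and the leucine genes TRL-CAG1 stood at 1 or 2 counts in every library. TRI-AAT4-1, TRW-CCA1-1 and TRL-CAG1-3 had 1 count in all 8 libraries. The glycine gene TRG-TCC4-1 had 2 and 5 counts in PlaB against 2 and 6 in DMSO, the lysine gene TRK-TTT3-1 had 1 and 3 against 6 and 6, and the arginine gene TRR-ACG1-2 had 5 and 5 against 2 and 4. The valine gene TRV-CAC9-1 had 4 in each of these 4 libraries. The deposited counts were rounded up, so that 1 can stand for any part of a read. Of 150 member values of 1, 84 had an unrounded estimate under 0.5. A count of 1 in PlaB equals about 0.04 CPM against 0.01 to 0.02 CPM elsewhere, because of the smaller scaled depth of PlaB, and values at that level carry no difference.

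Mitochondrial tRNA genes did not all move in the same direction in PlaB. The 20 genes summed to 91.5 and 149 CPM in PlaB against 112 and 91.6 CPM in DMSO. Of 19 tested, 5 were called higher and 0 lower, beside 32.5% and 35.5% of all tested genes. Of the 19, 13 had positive and 6 negative log2 values, and the median was 0.51. Whether this class differed from the others was not tested, and TRNL2 and TRNP were not among the genes listed in the table. Both PlaB libraries lay above both DMSO libraries for 9 genes, beside 38.6% of all tested genes, and below for 3, beside 44.1%. When libraries were scaled by their totals alone, 5 of the 19 had positive values, with TRNR called higher and TRNC, TRND, TRNF and TRNY called lower.

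TRNS1, the tRNA for serine UCN codons, had the highest CPM of the class, with 60.1 and 83.8 CPM in PlaB against 57.3 and 43.8 CPM in DMSO. Its log2 value was 0.51 ± 0.30 (SE, adjusted p = 0.162). TRNL1, which decodes leucine UUR codons and follows RNR2 with no gap, had 16.7 and 34.2 CPM in PlaB against 23.6 and 20.0 CPM in DMSO. The DMSO libraries fell between the PlaB libraries, and its log2 value was 0.22 ± 0.32 (adjusted p = 0.556), beside 1.92 for RNR2.

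TRNY, the tyrosine tRNA, had 2.25 and 10.6 CPM in PlaB against 16.4 and 13.6 CPM in DMSO. Both PlaB libraries were below both DMSO libraries, by very different amounts, and the log2 value was -1.23 ± 0.57 (adjusted p = 0.0885). TRNC, the cysteine tRNA next to it on the same strand, had 0.191 and 1.28 CPM in PlaB against 1.56 and 1.2 CPM in DMSO. TRNF, the phenylalanine tRNA that begins the heavy-strand transcript, had 1.41 and 4.30 CPM in PlaB against 5.22 and 4.90 CPM in DMSO. In these 3 genes replicate 1 of PlaB was the lowest of the 8 libraries, and replicate 2 stood 4.69, 6.69 and 3.05 times higher. Without replicate 2 of PlaB all 3 were called lower, at -2.74, -2.85 and -1.85, but PlaB is then a lone library that is assumed to vary like the other groups. In the other groups the replicates of these genes differed by 0.77- to 1.33-fold.

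TRNR, the arginine tRNA between ND3 and ND4L, had 12 and 26 counts in PlaB against 11 and 10 counts in DMSO, or 0.458 and 1.11 CPM against 0.179 and 0.113 CPM. Its log2 change was 2.42 ± 0.57 (SE, adjusted p = 0.0062), the largest of the class, while ND3 and ND4L had 0.67 and 0.70. TRNK (lysine) and TRNA (alanine) were called at 1.43 ± 0.45 (adjusted p = 0.0214) and 1.45 ± 0.45 (adjusted p = 0.0205). TRNV, the valine tRNA between the 2 rRNAs, had 2.02 and 3.11 CPM in PlaB against 1.53 and 1.09 CPM in DMSO (0.97 ± 0.36, adjusted p = 0.0405), below the 2.59 and 1.92 of RNR1 and RNR2 on either side. TRNI (isoleucine) was called at 0.96 ± 0.36 (adjusted p = 0.0442). None of these 5 calls held in every alternative. TRNR lost it without replicate 2 of DMSO (adjusted p = 0.0526). TRNK lost it without replicate 2 of PlaB or of DMSO, and TRNA without replicate 1 of PlaB, without either DMSO library and by DESeq2. TRNI and TRNV lost it in 10 and 11 of 18 alternatives, among them without either DMSO library, and TRNI also without replicate 1 and TRNV without replicate 2 of PlaB. With libraries scaled by their totals alone, TRNA, TRNI, TRNK and TRNV were not called. The other 9 tested mitochondrial tRNAs had log2 values between -0.35 (TRNH, histidine) and 0.84 (TRNW, tryptophan), none of them called, and TRNS2, the tRNA for serine AGY codons, had 1 to 6 counts and was not tested.

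**Figure D4:**
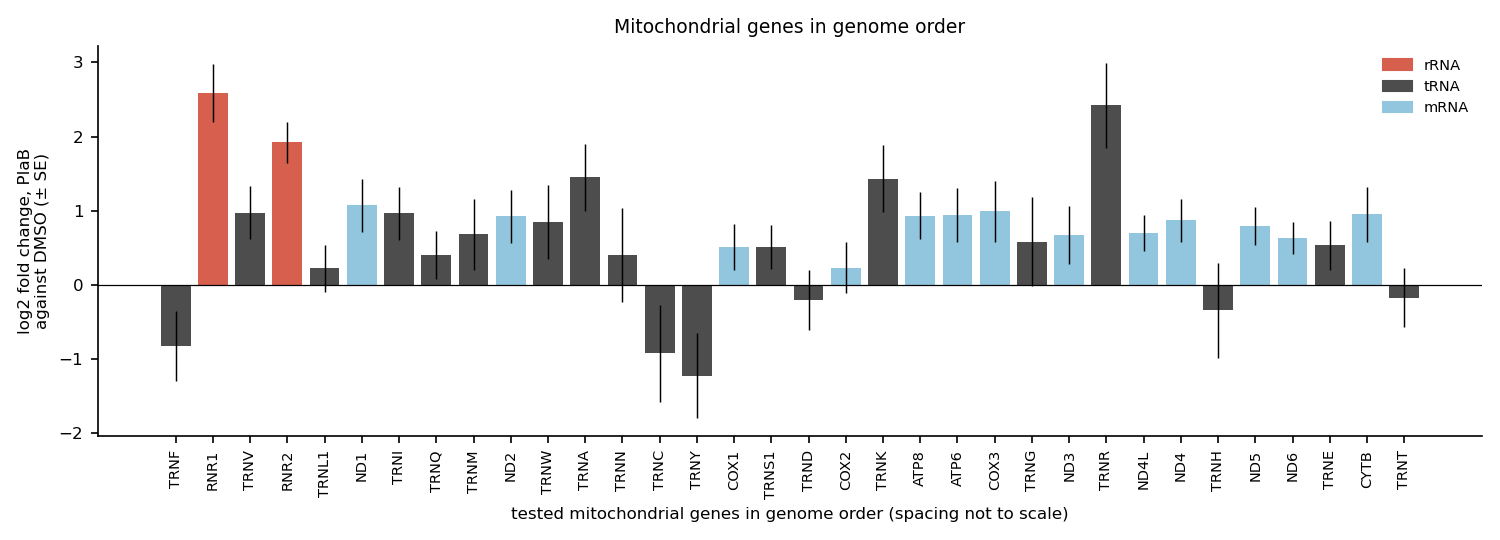
Log2 fold change (PlaB against DMSO, bars with SE) of the tested mitochondrial genes in genome order, with rRNA, tRNA and mRNA in different colours. The rRNAs stand at 2.59 and 1.92, the mRNAs between 0.23 and 1.07, and the tRNAs between -1.23 and 2.42.

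**Figure D5:**
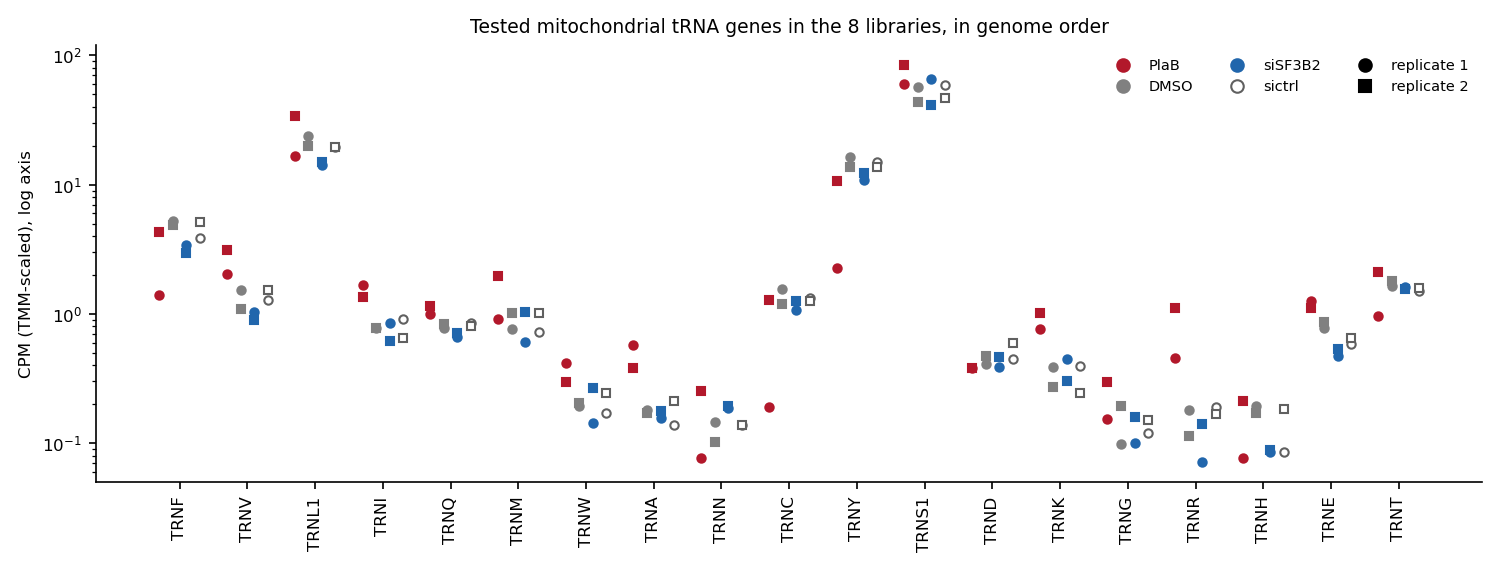
CPM of the 19 tested mitochondrial tRNA genes in each library (log axis, genes in genome order; colours are groups, shapes are replicates). Replicate 1 of PlaB lies below all other libraries for TRNF, TRNC and TRNY.

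In the siRNA arm no member was called by edgeR or DESeq2, and 1 of the 45, RN7SK, had an unadjusted p under 0.05, beside 3.87% of all tested genes. RN7SK had 8.63 and 9.24 CPM in siSF3B2 against 15.4 and 11.3 CPM in sictrl, both lower (-0.58 ± 0.23 SE, unadjusted p = 0.037). RNA28SN1 had 11231 and 5076 CPM in siSF3B2 against 8607 and 9306 CPM in sictrl, so that the siSF3B2 libraries lay on either side of the controls (-0.14 ± 0.39). RNA18SN1 had 238 and 96.2 CPM in siSF3B2 against 67.0 and 115 CPM in sictrl (0.88 ± 0.45, unadjusted p = 0.0861). RNR1 and RNR2 had values of 0.09 ± 0.37 and -0.01 ± 0.27. Of the 19 tested mitochondrial tRNAs, 15 had negative values with a median of -0.15, and 8 had both siSF3B2 libraries below both sictrl libraries, beside 19.2% of all tested genes. Only TRNN had both above, beside 19.9%. TRNL1 was among the 8, with 14.3 and 15 CPM in siSF3B2 against 19.4 and 19.7 CPM in sictrl (-0.42 ± 0.32, unadjusted p = 0.233). The 13 mitochondrial mRNAs had a median of -0.17.

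The difference between the PlaB effect and the siSF3B2 effect was tested as an interaction. It was called higher for 23 of the 45 members and lower for 0, beside 25.2% and 28.5% of all tested genes (53.7% in either direction). At an unadjusted p under 0.05 it was 26, beside 60% of all tested genes. It was called for 8 of 10 nuclear rRNA genes, both mitochondrial rRNA genes, 9 of 12 snRNA genes, both nuclear tRNA genes and 2 of 19 mitochondrial tRNA genes (TRNR and TRNV). The called genes include TRI-TAT2-2, RNU6ATAC and some of the U1 genes, which passed the filter only through PlaB, as named above. Their calls are descriptions and no support for a direction of the difference. RN7SK had the smallest adjusted p, with a difference of 3.23 ± 0.33 (SE, adjusted p = 0.000237). Of the 23, RNR1, RNR2, RNA45SN3 and RN7SK kept this call in every alternative that was run for it, and the other 19 did not. The control groups differed in no member by edgeR or DESeq2, and RNA45SN3 alone had an unadjusted p under 0.05 in sictrl against DMSO (2185 and 752 CPM in sictrl against 688 and 557 CPM in DMSO), beside 0.922% of all tested genes.

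The genes that make and process these RNAs moved in both directions in PlaB against DMSO, beside 32.5% of all tested genes called higher and 35.5% lower. Of 20 RNA polymerase I genes, 15 were called higher and 2 lower, with a median of 1.43; RRN3, the initiation factor, changed by 3.06 and UBTF, the rDNA-binding factor, by 1.00, while POLR1E changed by -1.29. Of 24 RNA polymerase III genes, 7 were called higher and 8 lower (median -0.24). BRF2, the factor for U6 and 7SK promoters, changed by 4.08 and MAF1, the repressor of the polymerase, by 2.66, while the alternative subunits POLR3G and POLR3GL changed by -3.64 and -2.67. The 24 genes for snRNA transcription and 3′ processing were SNAPc and Integrator genes with POU2F1, ZNF143, ICE1, ICE2 and ELL. Of these, 13 were called higher and 7 lower (median 1.14). SNAPC4 changed by 2.58, and the Integrator subunits INTS5 and INTS8 by 2.93 and -2.87. Outside SNAPc and Integrator, POU2F1, ZNF143, ICE1 and ELL changed by 1.90, 2.27, 2.45 and 2.45, and ICE2 by -1.83. Of 23 genes for snRNA capping, export and Sm core assembly, 11 were called higher and 4 lower (median 0.88), with PHAX, the snRNA export adaptor, at 3.68 and CLNS1A, an Sm assembly chaperone, at -2.49. Of 25 proteins that bind particular snRNAs, 10 were called higher and 6 lower (median 0.21), with SNRNP70 of U1 at 2.19 and SNRPA1 of U2 at -1.55. Of 31 nuclear tRNA processing genes, 11 were called higher and 13 lower (median -0.39), with CLP1 at 4.18 and XPOT, the tRNA exporter, at -3.44. Of 19 mitochondrial RNA genes, 11 were called higher and 4 lower (median 0.60), with TRMT10C of mitochondrial RNase P at 3.97, FASTKD5 at 4.68, and ELAC2, the tRNA 3′ nuclease, at -1.06. In siSF3B2 against sictrl none of the genes of these 7 lists was called by edgeR, and their medians lay between -0.03 and 0.07.

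The authors' deposited table gave an adjusted p under 0.05 for 31 of the 83 genes as higher and 1 as lower in PlaB against DMSO, and for 0 in siSF3B2 against sictrl. The gene it gave as lower was TRNY, with a signed fold of -2.45 and an adjusted p of 0.0208 in the authors' deposited table, against an adjusted p of 0.0885 in the edgeR fit above. Over all 17010 genes, the authors' deposited table gave 5323 as higher and 6125 as lower in PlaB. In siSF3B2 against sictrl it gave 4 of all genes as higher and 10 as lower.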

How the data were processed

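RNA was measured in 8 libraries of PC3 cells, 2 for each of 4 groups, made per the labels' protocols with the TruSeq Stranded mRNA kit. Reads were processed with Trimmomatic 0.38, HISAT2 2.10 and Bowtie2 2.3.5.1 on GRCh38, with edgeR named too, per the submitters' processing notes; these sources name no counting program, annotation or strand setting. The deposited estimated counts were used as the authors gave them. Set against the deposited FPKM, they proved to be estimates rounded up: 558 of 560 member values under 1000 counts lay 0 to 1 (tolerance 0.05) above FPKM × length × 1 constant per library. The lowest count in the table is 1 and genes at 0 in a library are not listed. The authors' TPM were used only for ratios per length and marker levels, and their log2 values only to recover their scaling. The authors' signed fold (a score, negative where lower) and p-values in the deposited table were copied, not recomputed; their test is not stated.

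Members were the genes whose deposited biotype is rRNA, snRNA or tRNA, and 1 of 83, TRV-CAC9-1, was not matched to RefSeq (GRCh38.p14 table). Tests used edgeR 4.0.16 in R 4.3.3: filterByExpr with a minimum count of 10, TMM scaling, a robust quasi-likelihood fit of all 8 libraries with 4 residual degrees of freedom, and two-sided tests with Benjamini-Hochberg adjustment over 16488 genes at 0.05. Each SE of the edgeR fits is the absolute log2 change divided by the square root of the quasi-likelihood F statistic. The design had assumed raw counts. The estimates are already whole numbers and went in as deposited. On simulated data for PlaB against DMSO the fit recovered 85% of genes changed by 2 and 99% of those changed by 3 on the log2 scale, with 6.12% of calls false. The simulation changed only 200 genes, drawn from those above a minimum CPM in DMSO, and left all others equal. Its rates therefore do not describe genes with few counts, or data in which most genes change as they did here. Alternatives were other scalings and filters, DESeq2 1.42.0, a replicate block, the contrast's libraries alone, each library left out, and, added after seeing the data, the unrounded estimates and sums per family. Strand and hosts came from GENCODE release 44, or from the anticodon or B box for nuclear tRNA genes. Genes were named by rule: every member of a class of 10 or fewer, otherwise the 10 with the highest mean CPM and the 5 largest called changes with a mean of at least 1 CPM, plus listed snRNA symbols. Others, such as RNVU1-18, single 5S, 5.8S, TRL-CAG1 and TRI-AAT4-1 genes, TRNR, TRNA, TRNK, TRND, TRNN and the examples from the gene lists, were named after their values were seen. The members and gene lists were chosen with earlier results of these data known.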

Additional observations from a re-analysis of the deposited data

How the results depend on the processing

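Of the 30 members called in PlaB against DMSO, 19 were called under each of the alternatives in which they were tested, and 4 of 23 for the difference of the 2 effects. The 19 include TRI-TAT2-2 and RNU1-2, which passed the filter only through PlaB, so their repeated calls are no support for a direction. None of the called members changed sign. The number of members called in PlaB against DMSO was 15 with at least 1 CPM in 2 libraries, where 22 were tested, and 20 to 32 with a library left out. All calls were higher except 3 of the 32 (without replicate 2 of PlaB; 29 higher) and 4 of the 25 with library-size scaling alone (21 higher). It was 42 of 83 with no filter on low counts, 25 with the contrast's libraries alone, 29 by DESeq2 and 28 with unrounded estimates. For the difference of the 2 effects it was 7 with library-size scaling alone and 12 with at least 1 CPM in 2 libraries. With a library left out it ran from 9 (without replicate 2 of DMSO) to 27 (without replicate 2 of PlaB), with 12 without replicate 1 of DMSO or replicate 2 of siSF3B2 and 13 without either sictrl library. The cause of these differences was not tested. Over all genes, siSF3B2 against sictrl gave 1 call with RLE scaling, with at least 1 CPM in 2 libraries, with the contrast's libraries alone and without either PlaB library (0 to 1 over the libraries left out), and 29 by DESeq2, against 0. As shares of raw library counts, the log2 ratios of class sums were 1.22 for nuclear rRNA, 1.17 for mitochondrial rRNA (2.04 in CPM), 1.62 for snRNA (2.50), 0.81 for nuclear tRNA (1.68) and -0.62 for mitochondrial tRNA (0.24), all lower by construction of the scaling. Without members inside another gene on the same strand the nuclear rRNA ratio was 2.72 and the nuclear tRNA ratio 1.04. With a library left out, its group is a lone library assumed to vary like the others. With a replicate block, 31 members were called in PlaB against DMSO, RNU6-9 among them (adjusted p = 0.037). The replicate numbers correlated between groups at 0.12 to 0.43 over 16488 genes, but with 2 numbers this does not show that they pair the libraries. Depth limits the 38 untested genes, none of which had more than 11 counts in a library.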
